A study of Mus musculus with 8 samples.

Results

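The nuclear genes of oxidative phosphorylation were taken as the genes whose symbols name subunits, isoforms or assembly factors of the 5 complexes by their family stem (Ndufa, Ndufb, Ndufc, Ndufs, Ndufv, Sdha to Sdhd, Uqcr, Cox4 to Cox8 and Atp5) and that had at least 100 counts over all cells. Of 92 symbols with such a stem, 89 reached that count among the 28014 genes measured. Cox7b2, Cox8b and Cox8c did not, with 18, 0 and 2 counts. The 89 genes comprised 36 of complex I, 8 assembly factors of complex I, 4 of complex II and 8 of complex III. A further 15 were of complex IV, 15 of complex V and 3 were set apart from these groups (Ndufa4l2, Cox7a2l and Atp5s). Ndufa4 was counted in complex IV and Atp5sl among the assembly factors of complex I, although their stems name other complexes.

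Single CD31+ cells were sorted from the aorta-gonad-mesonephros (AGM) region of mouse embryos at E10.5, where blood cells bud from arterial endothelium, and their RNA was counted by CITE-seq with unique molecular identifiers (UMIs) at the 3′ end. There were 5 WT libraries (C57BL/6) and 3 Meis1 cKO libraries, which came from Meis1-flox mice with VE-Cre. In the latter, exon 8 of Meis1, which lies between loxP sites, is removed where Cre driven by the VE-Cadherin promoter is active, so the deletion is meant for endothelium and the cells descended from it. The paper lists the VE-Cre mice under a mixed strain name and gives no strain for the Meis1-flox mice. Strain background may therefore also differ between the genotypes, and its part was not tested. Each library was a pool of 2 to 5 embryos, and nothing in the labels ties a library of one genotype to a library of the other. The 10 cell types are the clusters as named by the authors: 4 of venous endothelium (vEC_1 to vEC_4), arterial endothelium (aEC), the endothelium about to become hemogenic (pre-HE), cells undergoing the endothelial-to-hematopoietic transition (EHT), erythro-myeloid progenitors (EMP), Megakaryocyte and Myeloid.

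Oxidative phosphorylation takes place on the inner mitochondrial membrane. Complexes I and II pass electrons from NADH and succinate to ubiquinone, complex III passes them to cytochrome c, complex IV to oxygen, and complex V, the ATP synthase, uses the proton gradient built by complexes I, III and IV. Most subunits are encoded in the nucleus and imported, and a small number of core subunits are transcribed from the mitochondrial genome, so that complexes I, III, IV and V are built from the products of both genomes. The subunits of complex II are all nuclear. Vascular endothelium is known to rely largely on glycolysis, and the mitochondrial activity of blood progenitors is known to change as they mature.

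The 15168 cells held between 20484881 and 79429129 UMIs per library, and 33 of 15135 barcodes occurred in more than 1 library. WT 1 to 4 had medians of 26572 to 28553 UMIs per cell, while WT 5 had 12720.5 and the Meis1 cKO libraries had 9611.5 to 14895, so that depth went with genotype except in WT 5. The 89 genes took 2.91% to 3.57% of the counts of a library, and those shares overlapped between the genotypes. Marker lists were highest in the cell type they name for EHT, EMP, Megakaryocyte and Myeloid, and venous markers were highest in vEC_4. Arterial markers summed to 2674 CPM (counts per 1000000 counts of the same library and cell type) in pre-HE and to 327 in aEC as WT means, against at most 80.3 in any other type, so the arterial list was highest in pre-HE. Meis1 itself ranged from 12.9 to 51.4 CPM in the pre-HE cells of WT and from 9.57 to 53.1 in those of Meis1 cKO, and those ranges overlapped. In EMP it was 56.7 to 77.0 against 21.0 to 36.4 CPM, with no overlap. Counts at the 3′ end do not test the loss of exon 8. The number of pre-HE cells was 248 in all, with 11 to 87 per library.

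The sum of the 89 genes differed modestly between cell types, and the types at both ends of the order were nearly the same in every library. EMP had the highest sum in 8 of 8 libraries, with WT 1 to 5 at 33550, 35790, 37680, 35250 and 32550 CPM and Meis1 cKO 1 to 3 at 32460, 33970 and 34590. pre-HE had the lowest sum in 6 of 8, at 26730, 29130, 29830, 29400 and 28180 CPM in WT and at 25420, 26400 and 30460 in Meis1 cKO. vEC_3 was lower still in WT 5, at 28030, and in Meis1 cKO 3, at 30190. The WT values of pre-HE and EMP did not overlap. Ordered by WT mean, EMP (34960 ± 1999, SD, n = 5) was followed by vEC_1 (33640 ± 2646), aEC (33320 ± 2522) and Myeloid (32360 ± 2276). Then came vEC_2 (32100 ± 2441), EHT (31690 ± 2197), vEC_3 (31530 ± 2688), vEC_4 (31480 ± 2734), Megakaryocyte (30170 ± 2237, n = 4) and pre-HE (28660 ± 1236). Every pair of neighbours in that order differed by less than the SD of either type, apart from Megakaryocyte and pre-HE, whose difference was larger than the SD of pre-HE and smaller than that of Megakaryocyte. Those SDs include the spread between libraries, so they do not measure a difference within a library. EMP and vEC_1 were such neighbours, yet EMP was higher in 8 of 8 libraries.

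**Figure D1:**
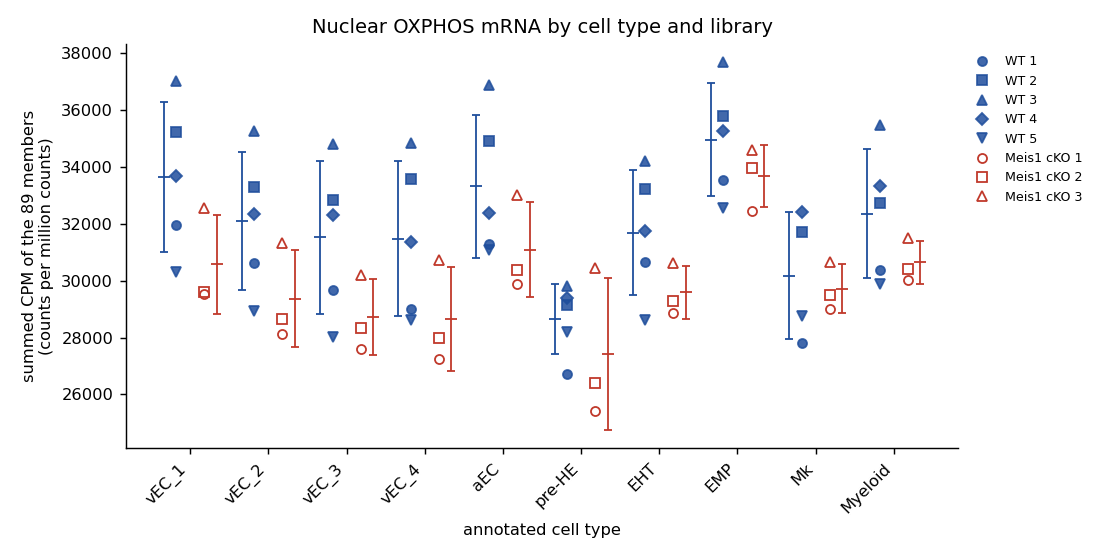
Summed CPM of the 89 nuclear genes of oxidative phosphorylation in each cell type, 1 point per library (filled blue, WT; open red, Meis1 cKO), with the mean and SD of each genotype as bars and an axis that does not start at 0. EMP is highest in all 8 libraries and pre-HE is lowest in 6 of them.

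A sum in CPM is a share of the RNA of a type, so it says nothing of the amount per cell. Per cell, the 89 genes had on average 347 to 427 UMIs in pre-HE and 662 to 791 in aEC of WT 1 to 4, and 274 against 322 in WT 5. The corresponding means in EHT were 993.5 to 1321 in WT 1 to 4 and 447 in WT 5. In EMP they were 1722 to 2048 in WT 1 to 4 and 791 in WT 5. The total of UMIs per cell moved in the same direction, with medians of 12250 to 15263 in pre-HE, 20189 to 21911 in aEC and 47527 to 53132 in EMP of WT 1 to 4. Larger cells and deeper capture of a cell cannot be told apart in these counts, and the rest of the comparisons are therefore on the CPM scale, within a library.

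The first comparison asks how the genes change where arterial endothelium and pre-HE differ. In pre-HE most subunits were lower than in aEC, by modest amounts and across all 5 complexes. Of 84 genes that could be tested in the 5 WT libraries, 54 were lower, 3 were higher and 27 did not pass the test (edgeR's quasi-likelihood test with the library as a block, Benjamini-Hochberg adjusted p under 0.1 over all 8143 genes). Over all genes tested, 42.1% were called, 21.1% higher and 21.1% lower, whereas 64.3% of the oxidative phosphorylation genes were lower and 3.57% higher. Their median log2 fold change was −0.31, beside 0.01 over all genes tested. After each cell had been thinned to 5000 UMIs, 33 of 78 genes were lower and 2 higher, or 44.9% called beside 36.4% of all 4668 genes tested.

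Ndufb2, an accessory subunit of complex I, fell furthest among the better expressed members. Its level was 295, 396, 425, 291 and 238.5 CPM in the aEC of WT 1 to 5 and 133, 238, 175, 187 and 135 CPM in pre-HE. Each pre-HE value was below that of aEC in the same library, and the same held in Meis1 cKO, where aEC had 258, 265 and 341 CPM and pre-HE 193, 139 and 229.9. The log2 fold change in WT was −0.97 ± 0.12 (SE, edgeR adjusted p = 3.69e-09). Ndufa8, another accessory subunit, was at 337, 358, 318, 354 and 380.5 CPM in WT aEC and at 164, 229, 188, 211 and 225 CPM in pre-HE. The ranges of both types were far apart, and the log2 fold change was −0.89 ± 0.11 (edgeR adjusted p = 4.30e-09). Cox7b, a small subunit of complex IV, changed by −0.70 ± 0.10 (edgeR adjusted p = 1.17e-07) on the same scale.

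The fall was found in each complex. In complex I, 24 of 36 subunits fell and 1 rose, and 6 of the 7 core subunits, which carry the flavin and the iron-sulfur clusters, were among those that fell. Among them Ndufs1, the largest of the core subunits, had a log2 fold change of −0.59 ± 0.20, but it was called in only 10 of 13 other settings, with −0.07 in the Meis1 cKO libraries alone and −0.39 after thinning. Ndufv1, which binds NADH, was at −0.45 ± 0.14 and was called in 11 of 13, also losing its call in those settings. In complex II, 2 of 4 fell. The iron-sulfur subunit Sdhb was at −0.47 ± 0.12, while the flavoprotein Sdha, at 0.12 ± 0.13, did not pass. In complex III, 5 of 8 fell, among them the Rieske protein Uqcrfs1 at −0.41 ± 0.11, which likewise lost its call after thinning and in the Meis1 cKO libraries alone. In complex IV, 9 of the 12 tested fell, and in complex V 14 of 15, among them Atp5a1, the alpha subunit of the F1 part, at −0.47 and Atp5b, its catalytic beta subunit, at −0.29. In the Meis1 cKO libraries alone Atp5b and Sdhb were not called. Of the 8 assembly factors of complex I, which help to build it without remaining in it, 0 fell and 1 rose at an adjusted p under 0.1. Atp5sl, counted in these data among the assembly factors, was that one, with 0.69 ± 0.27 (edgeR adjusted p = 0.0460), and it was picked out after its value had been seen because it lies below the expression limit of the rule for named genes.

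The other 2 genes that rose were Ndufa13 and Cox7a2l. Ndufa13, an accessory subunit of complex I, was at 212, 269.8, 304.5, 255 and 222 CPM in the aEC of WT and at 345, 401.5, 415, 379.5 and 309 CPM in pre-HE. It was higher in pre-HE in every WT library and also in the 3 Meis1 cKO libraries, with 215, 218 and 215 CPM in aEC and 292, 278 and 309 in pre-HE. Its log2 fold change was 0.47 ± 0.10 (edgeR adjusted p = 1.56e-04). Cox7a2l, a factor that joins complexes III and IV into supercomplexes, was at 305, 288, 284, 373 and 278 CPM in aEC and at 369, 457.5, 454, 451 and 386 CPM in pre-HE. The lowest pre-HE value was just below the highest aEC value, that of WT 4, and the log2 fold change was 0.34 ± 0.10 (edgeR adjusted p = 0.00454). In the Meis1 cKO libraries alone neither gene was called, with 0.36 for Ndufa13 and 0.24 for Cox7a2l, and without a filter on low counts Cox7a2l was not called either. Uqcrc1, a core protein of complex III, and Cox4i1, the ubiquitous isoform of subunit 4 of complex IV, had log2 fold changes of −0.06 and −0.01 and did not pass.

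Within libraries, the summed CPM of all 89 genes was lower in pre-HE than in aEC in 8 of 8, with log2 ratios of −0.23, −0.26, −0.31, −0.14 and −0.14 in WT 1 to 5 and of −0.23, −0.20 and −0.12 in Meis1 cKO 1 to 3. The mean over WT was −0.22 ± 0.07 (SD, n = 5). By complex, the WT means were −0.23 ± 0.07 for complex I, −0.23 ± 0.12 for complex II, −0.17 ± 0.09 for complex III, −0.22 ± 0.09 for complex IV and −0.24 ± 0.08 for complex V, and those differed from each other by less than their SDs. Gene by gene, 28 of 84 were lower in all 8 libraries and 3 were higher in all 8.

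Lists of other genes moved with them. Of 77 cytosolic ribosomal proteins tested, 69 were lower and 0 higher in pre-HE (median log2 fold change −0.35), and of 76 mitochondrial ribosomal proteins 40 were lower and 1 higher (−0.33). Of 15 glycolysis genes 13 were lower (−1.07) and 0 higher, and of 13 tricarboxylic acid cycle genes 4 were lower (−0.26) and 0 higher. Of 29 carriers and assembly proteins outside the 89, such as cytochrome c and assembly factors of complex IV, 9 were lower (−0.15) and 0 higher.

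Between pre-HE and EHT the genes ran mostly upward. Of 86 genes tested, 38 were higher in EHT, 8 were lower and 40 did not pass. Over all 8467 genes 61.6% were called, 31.6% higher and 30.0% lower, so that the members' 53.5% called was below the background in total, with 44.2% higher and 9.3% lower. Their median log2 fold change was 0.21, beside 0.04 over all genes. After thinning to 5000 UMIs 20 of 76 genes were higher and 8 lower, or 36.8% called beside 61.1% of all 3430 genes, and the median of the members was 0.09. Of the 54 genes that were lower in pre-HE than in aEC, 28 were higher in EHT than in pre-HE, 25 did not pass and 1 was lower again. The pre-HE cells enter both comparisons, so their own sampling error moves the 2 changes in opposite directions.

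Ndufaf4, an assembly factor of complex I, rose furthest among the better expressed members. In pre-HE it was at 51.6, 56.0, 38.9, 42.7 and 51.5 CPM in WT 1 to 5, and in EHT at 136, 132, 120.4, 98.1 and 133 CPM. Every EHT value exceeded every pre-HE value, and the log2 fold change was 1.34 ± 0.16 (edgeR adjusted p = 9.29e-09). In Meis1 cKO, pre-HE had 64.4, 52.7 and 0 CPM and EHT had 143, 89.6 and 133. Of the 8 assembly factors of complex I, 5 rose and 1 fell, with a median log2 fold change of 0.73, and Ndufaf2, an assembly factor that acts late in building complex I, was at 0.78 ± 0.14.

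Among the subunits, 12 of 36 of complex I rose and 4 fell, with a median log2 fold change of 0.12. Ndufs1 was at 0.77 ± 0.22 and moved that way in 6 of 8 libraries, and in the Meis1 cKO libraries alone it was at 0.22 and was not called. In complex III 4 of 8 rose and 0 fell, in complex IV 7 of 13 rose and 1 fell, and in complex V 9 of 15 rose and 1 fell. Only Sdhd, a membrane anchor, rose among the 4 genes of complex II, at 0.58. In complex IV, Cox5a, a subunit without which the enzyme is not assembled, was at 0.47 ± 0.09, and Atp5a1 of complex V was at 0.46.

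A few genes went the other way. Cox4i1 was at 1087, 1167, 998, 1308 and 1210 CPM in the pre-HE of WT and at 722, 758.5, 756, 851 and 761 CPM in EHT. Its EHT values were below every pre-HE value, and its log2 fold change was −0.54 ± 0.08 (edgeR adjusted p = 1.18e-06). Ndufa1, an accessory subunit of complex I, fell by 0.80 ± 0.13 on the log2 scale (edgeR adjusted p = 2.01e-06). Atp5h, in the stalk of the ATP synthase, was at −0.49 ± 0.10. Cox7a2l returned to 284, 279, 257, 333 and 310 CPM in EHT, a range that overlapped that of aEC, with a log2 fold change against pre-HE of −0.48 ± 0.10.

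The summed CPM was higher in EHT than in pre-HE in 8 of 8 libraries, but by unequal amounts. WT 1 to 5 had log2 ratios of 0.20, 0.19, 0.20, 0.11 and 0.02, and Meis1 cKO had 0.18, 0.15 and 0.01. WT 5 and Meis1 cKO 3 were close to 0, and for complex I their ratios were −0.01 and −0.05. The WT means by complex were 0.11 ± 0.08 (SD, n = 5) for complex I, 0.20 ± 0.08 for complex II, 0.19 ± 0.08 for complex III, 0.13 ± 0.09 for complex IV and 0.17 ± 0.09 for complex V. In other lists the members that rose were 75 of 77 cytosolic ribosomal proteins (median log2 fold change 0.48), 64 of 76 mitochondrial ribosomal proteins (0.55), 9 of 13 tricarboxylic acid cycle genes (0.48), 10 of 16 glycolysis genes (0.50) and 15 of 31 carriers and assembly proteins (0.55). Of 10 regulators of mitochondrial genes 8 could be tested and 4 rose, namely Tfam, which packages and transcribes mitochondrial DNA, at 1.14, its partner Tfb2m at 1.41, Pprc1, a coactivator, at 1.37 and Myc at 1.56, all named after their values had been seen. Nrf1, Gabpa and Yy1 were at 0.04, 0.11 and 0.23 and did not pass. In pre-HE against aEC 7 of the regulators could be tested, and 1 rose and 0 fell.

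Set directly against aEC, EHT did not return to the arterial level on the CPM scale, although its UMIs of these genes per cell were higher. Of 86 genes tested 51 were lower in EHT than in aEC and 13 were higher. Over all 9532 genes 71.5% were called, 35.8% higher and 35.7% lower, so the 74.4% of members called was near the background in total and differed from it in direction, with 59.3% lower and 15.1% higher. With library totals in place of TMM factors, which moved the median of all genes by 0.12 on the log2 scale, the split was 37 lower and 25 higher, and with cells thinned to 5000 UMIs it was 30 lower and 12 higher of 82, or 51.2% called beside 61.0% of all 5562 genes. The summed CPM was lower in EHT in 8 of 8 libraries, by a log2 ratio of −0.07 ± 0.04 in WT (SD, n = 5).

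Ndufa1 and Ndufb11, subunits of complex I that are both encoded on the X chromosome, fell furthest between aEC and EHT among the better expressed members. Ndufa1 was at 167, 204, 259.7, 176.5 and 117 CPM in aEC and at 90.6, 91.4, 134, 102 and 66.8 CPM in EHT. It was lower in EHT in every library, although the EHT value of WT 3 exceeded the aEC value of WT 5, and the log2 fold change was −1.04 ± 0.07 (edgeR adjusted p = 3.82e-09). Ndufb11 was at 408, 474, 476, 458 and 393 CPM in aEC and at 240.6, 264, 239, 275 and 239 CPM in EHT, without overlap, and its log2 fold change was −0.93 ± 0.06 (edgeR adjusted p = 1.64e-09). The 89 genes lie on 19 chromosomes, and Cox7b was the third one on the X chromosome, with −0.25 ± 0.06 between aEC and EHT. Of 302 genes of the X chromosome tested in that comparison, 100 were higher and 123 lower, with a median log2 fold change of −0.08. Ndufb2 was at −0.92 ± 0.06 in EHT against aEC, close to its change in pre-HE, while Ndufaf4 was at 0.92, the assembly factor Ndufaf6 at 0.65 and Ndufaf2 at 0.52. Ndufaf6 was not called in the Meis1 cKO libraries alone, where it was at 0.28.

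**Figure D2:**
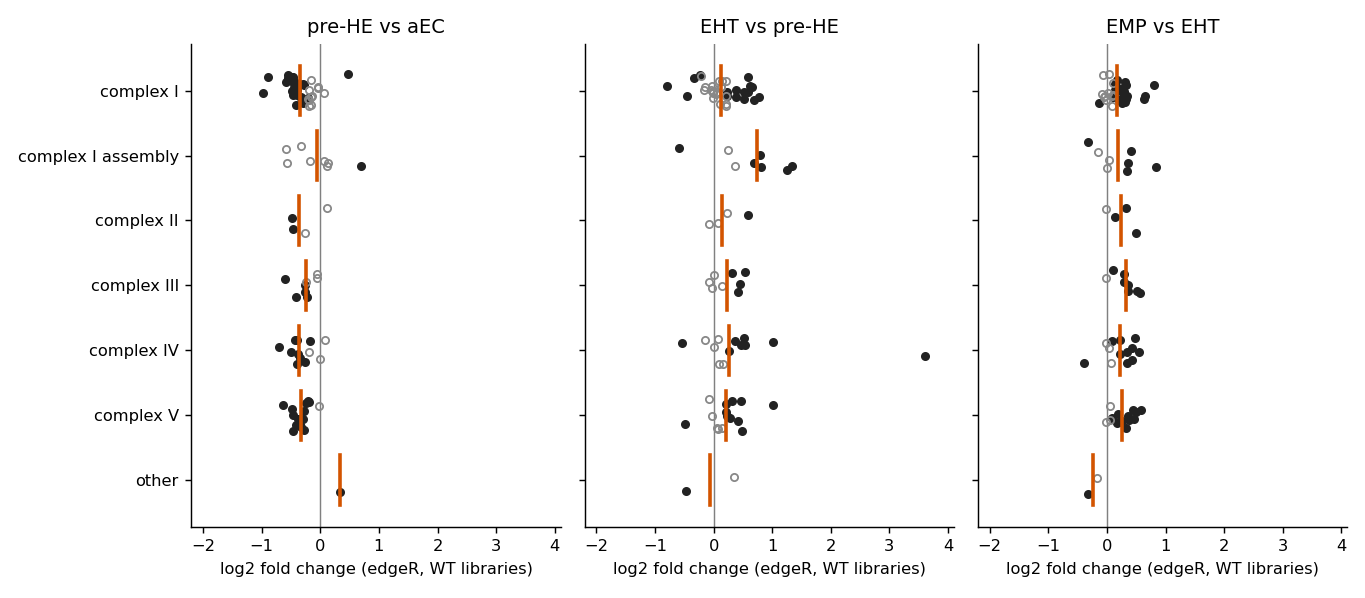
Log2 fold change of each tested gene (x axis) in rows for the complexes and the assembly factors of complex I, in 3 panels for pre-HE against aEC, EHT against pre-HE and EMP against EHT in WT, with filled points for genes called by edgeR at an adjusted p under 0.1 and an orange bar at each row's median. Most points lie below 0 for pre-HE against aEC and above 0 for EMP against EHT, and the assembly factors have the highest median, 0.73, for EHT against pre-HE.

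Between EHT and EMP most of the genes rose. Of 86 genes tested 59 were higher in EMP, 4 were lower and 23 did not pass, and over all 9252 genes 56.4% were called, 27.6% higher and 28.8% lower. The members' shares were 68.6% higher and 4.65% lower, and their median log2 fold change was 0.21, beside −0.01 over all genes. With library totals in place of TMM factors, which moved the median of all genes by −0.10, the split was 44 higher and 12 lower. After thinning to 5000 UMIs it was 28 higher and 1 lower of 81, or 35.8% called beside 36.4% of all 4284 genes. Neutrophil granule genes rose as well in EMP, with 4 of 5 tested higher and sums of 212 to 359.7 CPM in EHT and 1443 to 1972 in EMP of WT, and their part was not tested. In complex I 24 of 36 rose, in complex II 3 of 4, in complex III 7 of 8, in complex IV 9 of 13 and in complex V 12 of 15.

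Ndufb10, an accessory subunit of complex I, was at 188.5, 220.5, 246, 256.5 and 169 CPM in EHT and at 341, 369.9, 346, 387 and 306 CPM in EMP. The lowest EMP value was above the highest EHT value, and the log2 fold change was 0.81 ± 0.06 (edgeR adjusted p = 3.35e-08). The assembly factor Ndufaf3 was at 0.85, Ndufv3, a flavoprotein subunit, at 0.64, Ndufa1 at 0.63, Uqcrfs1 at 0.56 and Cox4i1 at 0.54. Cox4i1 and Ndufa1, which had fallen between pre-HE and EHT, thus rose between EHT and EMP. The 4 genes that were lower in EMP were Cox7a2l at −0.32, Ndufb2 at −0.13, Cox6b2 at −0.39 and Atp5sl at −0.33, the last 2 picked out after their values had been seen. Ndufb2 was called in only 5 of 13 other settings, with values of −0.23 to −0.04, and Cox7a2l was not called in the Meis1 cKO libraries alone, where it was at −0.10.

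The summed CPM was higher in EMP than in EHT in 8 of 8 libraries, with a log2 ratio of 0.14 ± 0.03 in WT (SD, n = 5). Complex I had the smallest WT mean, 0.08 ± 0.03, and complexes II, III, IV and V had 0.20 ± 0.11, 0.17 ± 0.02, 0.18 ± 0.04 and 0.17 ± 0.03. Of the tricarboxylic acid cycle genes 12 of 13 were higher in EMP (median log2 fold change 0.40), and of 17 glycolysis genes 12 were higher and 1 lower (0.49).

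Myeloid cells and megakaryocytes, the more differentiated blood cells in the data, were set against EMP. Of 87 genes 38 were lower in Myeloid than in EMP and 13 higher, with a median log2 fold change of −0.08. Over all 10267 genes 61.1% were called, 32.1% higher and 29.0% lower, and the members' shares were 14.9% and 43.7%. The split was 51 lower and 8 higher with library totals and 44 lower and 8 higher with RLE size factors, and after thinning it was 17 lower and 8 higher of 82, or 30.5% called beside 46.1% of all 5565 genes. The assembly factors Ndufaf4, Ndufaf6 and Ndufaf2 fell furthest among the better expressed members, at −0.70, −0.56 and −0.36, and 5 of the 8 assembly factors fell and 0 rose. In complex III 6 of 8 fell and 0 rose, whereas in complex I 12 fell and 7 rose. The summed CPM was lower in Myeloid in 8 of 8 libraries, by a log2 ratio of −0.11 ± 0.03 in WT (SD, n = 5).

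In megakaryocytes, where WT 3 had 5 cells and was left out, 31 of 87 genes were lower than in EMP and 8 were higher, with a median log2 fold change of −0.09. Over all 9370 genes 58.9% were called, 29.5% higher and 29.5% lower, and the members' shares were 9.2% and 35.6%. Without WT 5, 24 genes were called, or 27.9% beside 50.6% of all genes, and 25 without WT 2. After thinning 14 of 79 were lower and 6 higher, or 25.3% called beside 51.1% of all 4418 genes. Sdhd was at 276, 257, 237, 289.9 and 179 CPM in the EMP of WT 1 to 5 and at 119, 137, 167 and 101.5 CPM in the megakaryocytes of WT 1, 2, 4 and 5. The megakaryocyte values were all below those of EMP, and the log2 fold change was −0.84 ± 0.09 (edgeR adjusted p = 6.04e-05). Ndufa3, an accessory subunit of complex I, ran the other way, at 205, 219.7, 300.7, 196 and 216 CPM in EMP and at 422, 385, 323 and 375 CPM in megakaryocytes, with 0.93 ± 0.11 (edgeR adjusted p = 1.22e-04). Megakaryocyte values of Ndufa3 exceeded each EMP value of WT. In Meis1 cKO 3 the EMP value was 397 and the megakaryocyte value 444 CPM. The 7 hemoglobin genes moved with megakaryocytes, where they summed to 402 to 7262 CPM in WT against 28.6 to 218 in EMP, with 6 of 7 higher, and their part in these changes was not tested.

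Among endothelial cells the differences were small and mostly one-sided. In aEC against the 4 vEC clusters together, 44 of 86 genes were higher and 10 lower, with a median log2 fold change of 0.09. Over all 11345 genes 59.7% were called, 29.2% higher and 30.5% lower, and with library totals the members' split was 35 higher and 16 lower. Ndufb2 was at 0.78, Ndufa6 at 0.50, Ndufv1 at 0.42 and Cox4i1 at 0.40, while Ndufaf4 was at −0.59, Ndufaf6 at −0.46, Ndufa8 at −0.45 and Ndufaf2 at −0.37. Ndufa6 is an accessory subunit of complex I. The summed CPM was higher in aEC in 7 of 8 libraries, and WT 4 had a log2 ratio of −0.01. Ndufb2 was thus higher in aEC than in vEC and lower in pre-HE and EHT than in aEC.

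Within the venous clusters, vEC_4, which had the highest venous markers, was lower than vEC_1 for 59 of 85 genes and higher for 4, with a median log2 fold change of −0.18. Over all 10417 genes 54.9% were called, 27.4% higher and 27.5% lower. In complex I 27 of 36 fell and 0 rose, and in complex V 12 of 15 fell and 0 rose. Uqcrq, a small subunit of complex III, was at −0.48, Sdhb at −0.45 and Atp5g1 at −0.45, and of 76 mitochondrial ribosomal proteins 74 were also lower. Cox7a2l was higher, at 0.36, as was Uqcrh, the hinge protein of complex III, at 0.11. Cox6b2 and Atp5sl, picked out after their values had been seen, were the other higher ones, at 0.40 and 0.45. In vEC_2 against vEC_3, 46 of 85 genes were higher and 1, Atp5sl, was lower at −0.33, with a median of 0.08, and over all 10853 genes 35.3% were called, 19.6% higher and 15.7% lower. None of the 4 named as the largest rises, Uqcrc1, Ndufb3, Ndufs5 and Ndufb2, exceeded 0.21. With library totals the split was 26 higher and 5 lower, and after thinning it was 13 higher and 0 lower of 84, or 15.5% called beside 15.8% of all 8116 genes.

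The 13 protein-coding genes of the mitochondrial genome ran opposite to the nuclear genes at each step from aEC through pre-HE and EHT to EMP. Within libraries, their summed CPM was higher in pre-HE than in aEC in 8 of 8, with a log2 ratio of 0.32 ± 0.08 in WT (SD, n = 5), lower in EHT than in pre-HE in 8 of 8, at −0.51 ± 0.16, and lower in EMP than in EHT in 8 of 8, at −0.34 ± 0.14. In EHT against aEC, set directly beside each other, both the mitochondrial genes, at −0.20 ± 0.11, and the nuclear genes were lower in 8 of 8. EMP had the lowest sum of all types in 8 of 8 libraries and pre-HE the highest in 6. By gene, 7 of 13 were higher and 0 lower in pre-HE than in aEC, among them mt-Cytb, the cytochrome b of complex III, at 0.35, and mt-Co3, a subunit of complex IV, at 0.31. The authors had kept only cells under 10% mitochondrial counts, which caps these values in every type.

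As a ratio of both sums, the nuclear genes stood to the mitochondrial genes at 0.604, 0.65, 0.924, 0.896 and 0.862 in the pre-HE of WT 1 to 5 and at 0.679, 0.748 and 1.018 in Meis1 cKO. In EMP the ratio was 1.397, 1.763, 1.935, 1.463 and 2.063 in WT and 1.712, 1.865 and 1.498 in Meis1 cKO. Each EMP value was above each pre-HE value. EMP had the highest ratio in 8 of 8 libraries and pre-HE the lowest in 7. The WT means of aEC, EHT, Myeloid and Megakaryocyte lay between them, at 1.135 ± 0.204, 1.227 ± 0.142, 1.338 ± 0.221 (SD, n = 5) and 1.076 ± 0.2 (n = 4). Those of aEC and EHT differed by less than their SDs, which include the spread between libraries. Within libraries, EHT was above aEC in each library except WT 3. There the ratio was 1.397 in EHT and 1.428 in aEC. Nuclear and mitochondrial counts are shares of the same total, so a rise of one lowers the other slightly by itself. The order went partly with UMIs per cell, whose median was lowest in pre-HE in each library. In WT 1 to 4 that median was 12250 to 15263 in pre-HE, 19522 to 21003.5 in vEC_4 and 47527 to 53132 in EMP. The WT mean ratio of vEC_4 was 1.021 ± 0.175, the next above pre-HE. Megakaryocytes departed from that order, with medians of 21111, 48993.5 and 48159 in WT 1, 2 and 4. The part of depth in the ratio was not tested.

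**Figure D3:**
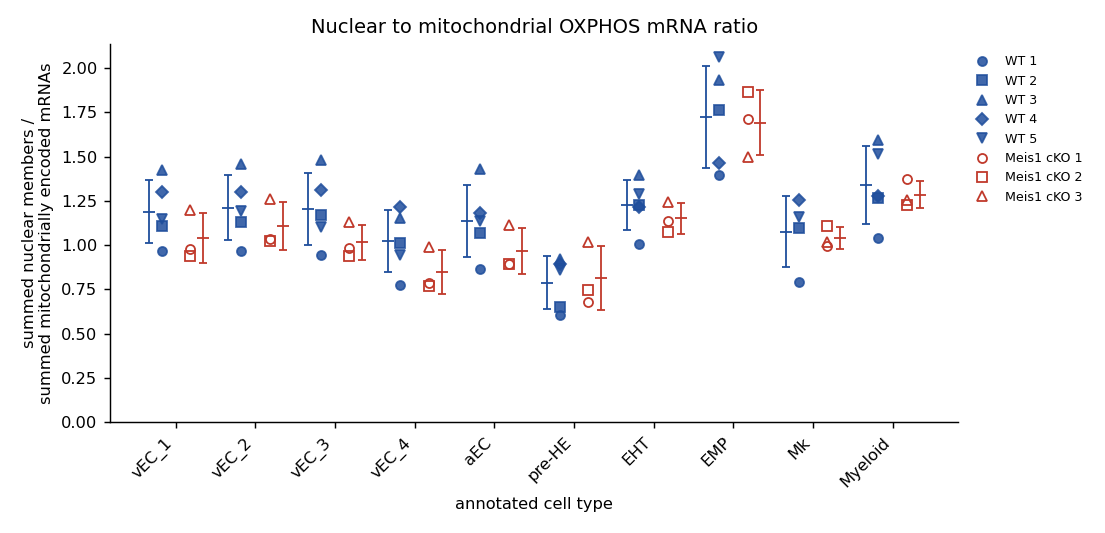
Ratio of the summed counts of the 89 nuclear genes to those of the 13 mitochondrial genes in each cell type, 1 point per library (filled blue, WT; open red, Meis1 cKO), with the mean and SD of each genotype as bars. EMP is highest in 8 of 8 libraries, at 1.397 to 2.063 in WT, and pre-HE is lowest in 7.

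Some subunits are encoded by several genes, and these did not move together. The c subunit of the ATP synthase, which forms the rotating ring in the membrane, has 3 genes, Atp5g1, Atp5g2 and Atp5g3, which encode the same mature protein behind different import sequences. Atp5g1 was at 502, 578, 589, 528 and 670.3 CPM in the aEC of WT 1 to 5 and at 345, 322, 357, 436 and 457 CPM in pre-HE. In EHT it was at 691, 752, 801, 769 and 773 CPM, and in EMP at 907, 1092, 1044, 1112 and 1132 CPM. Those 4 ranges did not overlap, with pre-HE lowest and EMP highest. The log2 fold changes were −0.64 ± 0.10 for pre-HE against aEC (edgeR adjusted p = 5.92e-07), 1.01 ± 0.10 for EHT against pre-HE (edgeR adjusted p = 1.52e-10) and 0.58 ± 0.04 for EMP against EHT.

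Atp5g2 was at 905, 896, 875, 1030 and 939.8 CPM in pre-HE and at 855, 969.5, 1020, 1020 and 920.4 CPM in EHT, and those ranges overlapped, with a log2 fold change of 0.08 ± 0.08 that did not pass. Atp5g3 was at 304, 336, 305, 421 and 476 CPM in pre-HE and at 443.5, 416.5, 489.8, 545 and 461 CPM in EHT, higher in EHT in 4 of the 5 WT libraries, with 0.41 ± 0.10. In the same libraries, the change of Atp5g1 exceeded that of Atp5g2 in 8 of 8 for EHT against pre-HE, for EHT against aEC and for EMP against EHT, and was below it in 8 of 8 for pre-HE against aEC.

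The sequences before the starts of those 3 genes, and before those of Ndufaf4 and Ndufb2, are shown because the genes of the c subunit moved unequally and because Ndufaf4 rose furthest from pre-HE to EHT and Ndufb2 fell furthest from aEC to pre-HE among the better expressed members. They are the 250 bases before the annotated start in RefSeq on GRCm38.p6, read 5′ to 3′ along the gene's strand, at chr11:96075632-96075881 (−) for Atp5g1, chr15:102671048-102671297 (−) for Atp5g2, chr2:73911327-73911576 (−) for Atp5g3, chr4:24897833-24898082 (+) for Ndufaf4 and chr6:39592315-39592564 (+) for Ndufb2. Capitals mark GCGCA followed by its own reverse complement, the motif of NRF1, an activator of many nuclear mitochondrial genes.
Atp5g1: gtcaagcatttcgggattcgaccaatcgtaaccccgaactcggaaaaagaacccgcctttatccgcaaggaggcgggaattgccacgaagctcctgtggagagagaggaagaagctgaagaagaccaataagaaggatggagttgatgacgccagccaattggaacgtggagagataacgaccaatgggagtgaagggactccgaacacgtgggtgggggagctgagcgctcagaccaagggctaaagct
Atp5g2: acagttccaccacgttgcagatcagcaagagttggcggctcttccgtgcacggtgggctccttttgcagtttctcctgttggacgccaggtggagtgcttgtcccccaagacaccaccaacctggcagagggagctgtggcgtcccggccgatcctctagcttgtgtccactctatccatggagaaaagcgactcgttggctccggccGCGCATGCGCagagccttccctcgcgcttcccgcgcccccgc
Atp5g3: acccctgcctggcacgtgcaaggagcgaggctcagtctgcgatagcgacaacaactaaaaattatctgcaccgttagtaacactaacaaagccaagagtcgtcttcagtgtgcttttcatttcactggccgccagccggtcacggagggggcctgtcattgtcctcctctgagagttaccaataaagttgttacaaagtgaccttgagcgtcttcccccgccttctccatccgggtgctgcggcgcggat
Ndufaf4: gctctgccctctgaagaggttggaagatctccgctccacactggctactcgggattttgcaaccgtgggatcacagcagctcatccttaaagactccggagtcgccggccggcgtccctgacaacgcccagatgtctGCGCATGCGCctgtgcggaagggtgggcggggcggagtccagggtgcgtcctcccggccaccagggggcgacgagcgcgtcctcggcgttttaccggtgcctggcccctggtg
Ndufb2: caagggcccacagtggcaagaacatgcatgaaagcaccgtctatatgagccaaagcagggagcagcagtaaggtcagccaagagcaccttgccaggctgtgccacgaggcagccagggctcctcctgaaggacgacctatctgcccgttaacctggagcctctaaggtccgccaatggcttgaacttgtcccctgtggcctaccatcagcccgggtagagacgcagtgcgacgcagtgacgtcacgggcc

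The motif began 42 bases before the start of Atp5g2 and 113 bases before that of Ndufaf4, and these letters did not occur in the other 3 windows on either strand. A RefSeq window of 300 bases, from 250 before to 50 after the start, was found for 74 of the 89 genes, and the motif, its own reverse complement, occurred in 7 of them (9.46%), against 1.07% of 27025 genes and 2.44% of the 9190 genes that were tested. The letters CCGGAAG, bound by GABP and other ETS factors, occurred on either strand in 17 (23.0%), against 9.93% and 20.6%, and AAGATGGCG, bound by YY1, in 8 (10.8%), against 1.64% and 3.79%. Of those 74 promoters 3 held more than 1 of the motifs. For pre-HE against aEC the median log2 fold change was −0.33 for the 7 genes with the NRF1 motif and −0.30 for the 65 tested genes without it. For EHT against pre-HE it was 0.08 for the 7 genes with the motif and 0.21 for the 66 tested genes without it.

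In complex IV, subunit 4 has a ubiquitous isoform, Cox4i1, and a second one, Cox4i2, known from lung and from cells exposed to low oxygen. Cox4i2 was nearly absent from endothelium, with 1, 0, 0, 8 and 3 counts in the aEC of WT 1 to 5 and 0, 1, 0, 4 and 0 in pre-HE. In EHT it was at 19.3, 23.2, 33.4, 25.8 and 55.4 CPM, and the log2 fold change was 5.13 ± 0.30 against aEC (edgeR adjusted p = 4.14e-10) and 3.61 ± 0.46 against pre-HE (edgeR adjusted p = 4.10e-08). Both of those folds rest on a few counts in endothelium. In EMP it was at 20.2, 21.9, 33.4, 22.4 and 53.8 CPM, which overlapped EHT. In Myeloid it was at 18.9, 24.8, 50.2, 48.3 and 104.6 CPM, and in megakaryocytes at 0, 1.45, 4.97 and 4.58 CPM, below every other WT blood value. Its log2 fold change for Megakaryocyte against EMP was −3.35 ± 0.34 (edgeR adjusted p = 5.40e-05). WT 5, the WT library with the fewest UMIs per cell, had the highest value in EHT, EMP and Myeloid.

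Cox6b2, an isoform of subunit 6b known from testis, was at 18.2, 18.9, 8.23, 14.9 and 15.2 CPM in the EMP of WT 1 to 5 and at 81.8, 36.2, 18.2 and 29.1 CPM in the megakaryocytes of WT 1, 2, 4 and 5. The megakaryocyte values spread widely and the lowest of them, that of WT 4, lay within the range of EMP. Against EMP the log2 fold change in megakaryocytes was 1.23 ± 0.30, and in Myeloid it was −1.29 ± 0.16. Of the isoforms known from muscle, Cox7a1 had 703 of its 1126 counts and Cox6a2 104 of its 135 counts in Myeloid cells. Cox7a1 was at 1.37 ± 0.23 in Myeloid against EMP (edgeR adjusted p = 4.62e-04), while Cox6a2 had too few counts to be tested between cell types. Ndufa4l2, a relative of Ndufa4 known from cells exposed to low oxygen, had 664 of its 725 counts in WT 4 alone and did not pass the filter on low counts in any comparison.

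**Figure D4:**
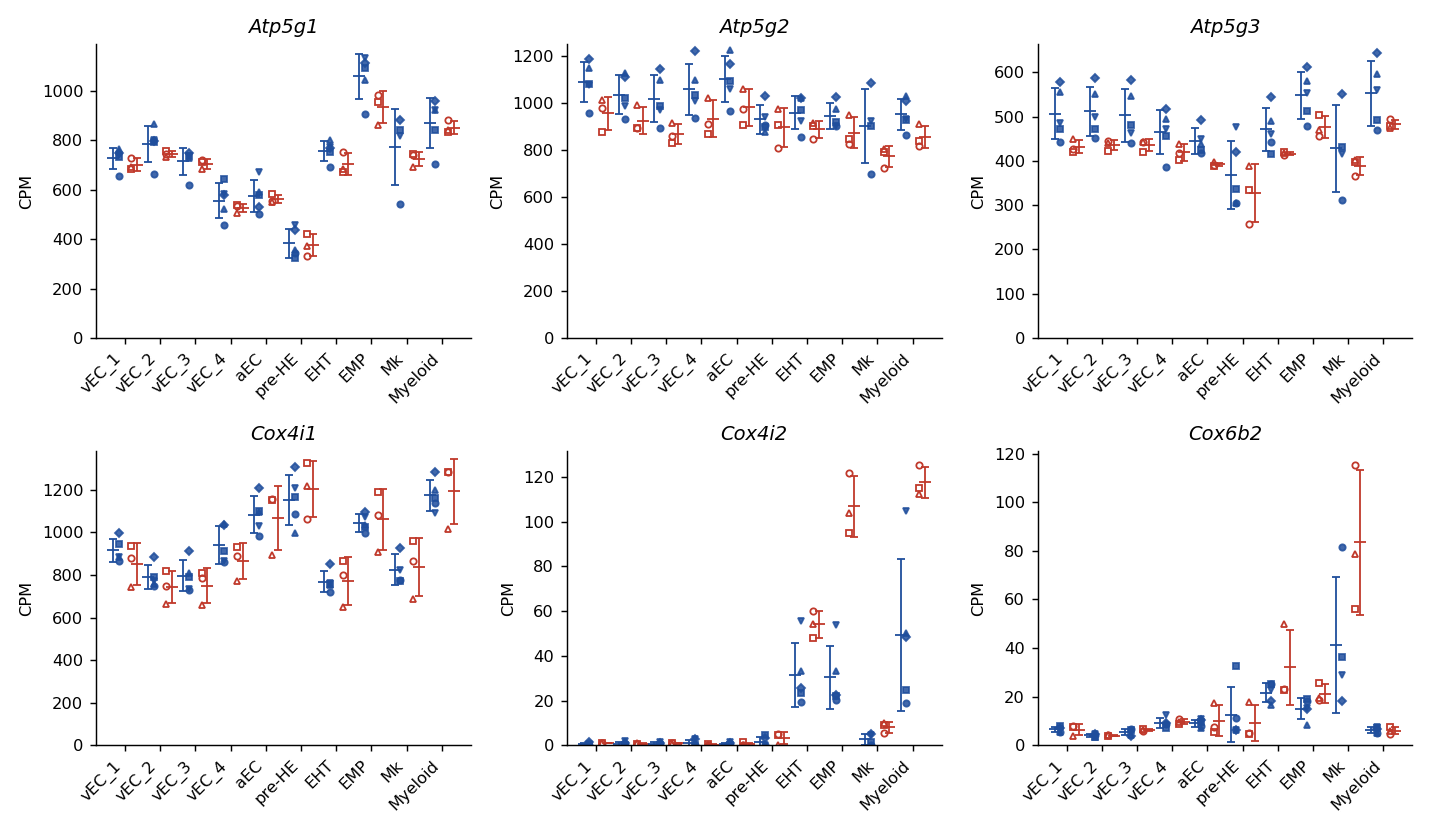
CPM of 6 members with isoforms in each cell type, 1 point per library (filled blue, WT; open red, Meis1 cKO), with the mean and SD of each genotype as bars. Atp5g1 falls from aEC to pre-HE and rises through EHT to EMP while Atp5g2 changes less, and Cox4i2 is near 0 in endothelium and megakaryocytes.

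Loss of Meis1 was compared with WT within cell types, 3 libraries against 5, to ask whether the genes change with genotype. In pre-HE, 0 of 76 members tested were called by edgeR, 1 had an unadjusted p under 0.05 and DESeq2 called 0. The summed CPM was 28660 ± 1236 (SD, n = 5) in WT and 27430 ± 2670 (n = 3) in Meis1 cKO, which differed by less than the SD of Meis1 cKO. The median log2 fold change of the members was −0.05. Over all 3682 genes tested there, edgeR called 0.489%, DESeq2 called 0.244% and 263 had an unadjusted p under 0.05. The SE of a member's log2 fold change had a median of 0.20 in pre-HE, so a count of 0 does not show that the levels were alike.

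In aEC, EHT, vEC and megakaryocytes few members were called either. In aEC 0 of 85 were called by edgeR, beside 0.0% of all 9540 genes, and 0 by DESeq2, beside 0.115%. In EHT 0 of 86 were called by edgeR, beside 0.127% of all 8670 genes, and 2 (2.33%) by DESeq2, beside 0.496%. In vEC it was 0 of 87, beside 0.0164% of all 12205 genes, and 2 (2.3%) by DESeq2, beside 2.16%. In megakaryocytes it was 0 of 84, beside 0.206% of all 7770 genes, and 0 by DESeq2, beside 1.11%. An unadjusted edgeR p under 0.05 was reached by 7 members in aEC, 7 in EHT, 9 in vEC and 4 in megakaryocytes. Over all genes it was reached by 1000, 823, 1996 and 686, in that order. The difference between genotypes of the change from aEC to EHT was called for 0 of 86 members, beside 0.0298% of all 10053 genes. There 1 member had an unadjusted p under 0.05, beside 552 of all genes, and DESeq2 called 0 members, beside 0.0199%. Those counts depended on WT 5, the one WT library as shallow as Meis1 cKO. Without it, 3 of 85 members were called in aEC (3.53%, beside 4.29% of all genes in that fit), 8 of 87 in vEC (9.2%, beside 13.5%), 5 of 86 in EHT (5.81%, beside 3.18%) and 2 of 83 in megakaryocytes (2.41%, beside 1.6%).

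In EMP 4 of 87 members were called, or 4.6%, near the 4.74% of all genes tested. Cox4i2 was higher in Meis1 cKO, at 121.8, 94.9 and 103.8 CPM against 20.2, 21.9, 33.4, 22.4 and 53.8 in WT. The genotypes did not overlap, WT 5 was nearest to Meis1 cKO, and the log2 fold change was 1.90 ± 0.27 (edgeR adjusted p = 0.00731). With WT 5 as the only WT library it was 1.02, and with depth (median UMIs per cell) in the model 1.05 (edgeR adjusted p = 0.545). Cox4i2 was not called in EHT or Myeloid against all 5 WT libraries. In EHT it was called under 4 of 18 other settings, with log2 fold changes of −0.03 to 1.23. In Myeloid cells it had 982, 1255 and 1330 counts in Meis1 cKO, among 7842879, 10890126 and 11855751 UMIs. WT 1 to 5 had 241, 396, 90, 398 and 610 counts there, among 12746763, 15970135, 1792495, 8241792 and 5832423 UMIs.

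Atp5h was at 267, 298, 336, 345 and 503.5 CPM in the EMP of WT and at 567, 598.8 and 559 in Meis1 cKO, with 0.76 ± 0.18 (edgeR adjusted p = 0.0510). Uqcrc1 was at 167, 181.5, 168, 163 and 201 CPM in WT and at 207, 276 and 199 in Meis1 cKO, where the lowest value lay below WT 5, with 0.42 ± 0.12 (edgeR adjusted p = 0.0993). Sdhd was at 276, 257, 237, 289.9 and 179 CPM in WT and at 158, 167 and 177 in Meis1 cKO, with −0.51 ± 0.13 (edgeR adjusted p = 0.0788). In all 3 genes WT 5 lay nearest to the Meis1 cKO values, and against WT 5 alone the log2 fold changes were 0.22, 0.20 and −0.07, none of them called. Markers of other blood cells also moved with genotype in EMP, where hemoglobins summed to 28.6 to 218 CPM in WT and 313 to 1918 in Meis1 cKO, with 5 of 7 called higher. The granule genes of neutrophils, of which 3 of 6 tested were called higher, summed to 1443 to 1972 CPM in WT and 1947 to 3343 in Meis1 cKO. Their part in the changes of the 4 members was not tested.

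In Myeloid 2 of 88 members were called, or 2.27%, beside 3.26% of all genes. Neutrophil granule genes moved with genotype here as well, with 3 of 7 called higher and sums of 1131 to 1391 CPM in WT and 2177 to 2925 in Meis1 cKO, and their part was not tested. Cox5b, a zinc-binding subunit of complex IV, was at 371, 378, 421, 373 and 568 CPM in WT and at 609.5, 627 and 676 in Meis1 cKO, with 0.65 ± 0.16 (edgeR adjusted p = 0.0701) and 0.24 against WT 5 alone (edgeR adjusted p = 0.659). Cox6a2 was lower in Meis1 cKO, at 0.255, 0.551 and 0.253 CPM against 1.73, 1.82, 1.12, 3.16 and 2.40 in WT, with −2.46 ± 0.45 (edgeR adjusted p = 0.0273), and this was the call in which WT 5 did not lie nearest to Meis1 cKO. It rests on 93 counts in WT and 11 in Meis1 cKO, and against WT 5 alone it was −2.62 (edgeR adjusted p = 0.177). Against WT 5 alone, and with depth in the model, 0 members were called in any cell type, and the medians over members in EMP and Myeloid were 0.10 and 0.13 against WT 5 beside 0.01 and −0.02 against all 5.

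**Figure D5:**
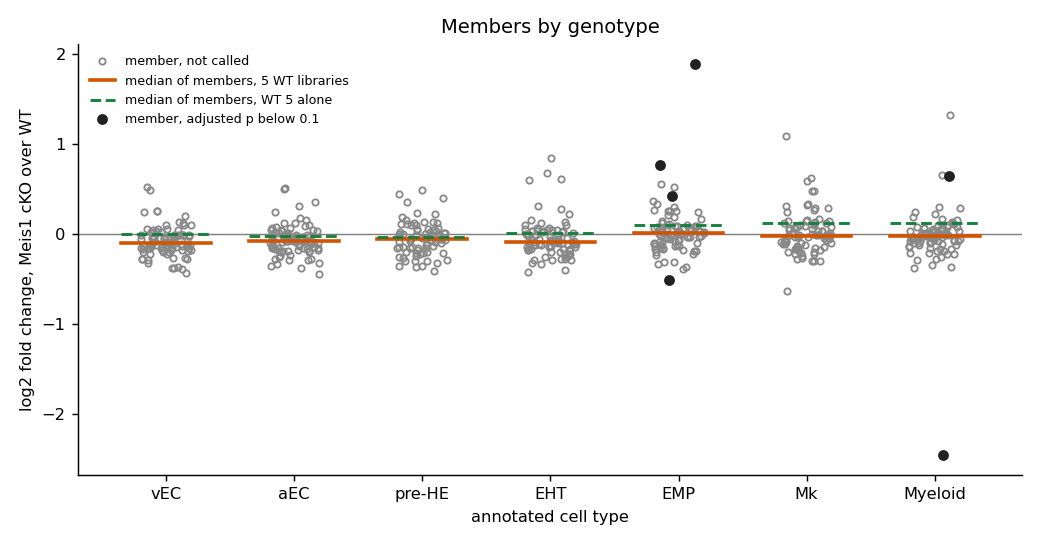
Log2 fold change between Meis1 cKO and all 5 WT libraries for each member in each cell type, filled where edgeR called it at an adjusted p under 0.1, with the median of the members against all 5 WT libraries (solid orange) and against WT 5 alone (dashed green). The members centre near 0 in every type, with medians of −0.10 to 0.01 against all WT libraries, and the 6 calls lie in EMP and Myeloid.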

How the data were processed

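The authors deposited 1 table of raw, unscaled UMI counts (28014 genes and 6 antibody tags by 15168 cells) and 1 annotation table with library, genotype and cluster name per cell. Per the labels, libraries were made from CD31+ cells with the 10X 3′ v3 kit, and the submitters' processing notes name Cell Ranger 3.0.2 and mm10. The authors had filtered cells by gene number and by a mitochondrial share under 10%, integrated the libraries and named the clusters. In the files the fewest genes in any cell was 2001 and the highest mitochondrial share 9.98%. Antibody tags were not used here.

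All counts of a cell type in a library were added up, where it had at least 10 cells, and tested over the whole gene table with edgeR 4.0.16 in R 4.3.3 (TMM, filterByExpr, quasi-likelihood F test, two-sided, Benjamini-Hochberg, adjusted p under 0.1). Cell types were compared within WT, blocking on the library, and genotypes within a type with no block. CPM values are per 1000000 counts of the sum, without scaling factors. Libraries are pools of embryos whose origin from separate litters is not given, so p-values measure the spread between these libraries. A gene's reads at the 3′ end may be shared with processed pseudogenes, which many members have, so single genes are uncertain to that extent. The CPM of a single gene is compared within that gene only. The sums over genes, and the ratio of the nuclear to the mitochondrial sum, carry the same uncertainty. Scrublet (scanpy 1.11.5, Python 3.11.15) called 83 of 15168 cells (0.547%) as doublets, which were kept. By type the share was highest in EHT, with 15 of 488 cells (3.07%). It was 2.09% in Myeloid, 1.205% in EMP, 0.066% in aEC and 0.0% in pre-HE. The test was checked on simulated counts.

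The members and lists were chosen with earlier results of these data known. Named genes were, per comparison, the members that rose most and fell most, up to 4 each, among those called and with an average log2 CPM no lower than 5, together with fixed core subunits and isoforms. Alternatives were RLE factors, library totals, DESeq2 1.42.0, no filter on low counts, thinning to 5000 UMIs, no doublets, all 8 libraries, leaving out each library, WT 5 alone, depth as a covariate and the replicate number as a block. Tests in the Meis1 cKO libraries alone, and in libraries 1 to 3 of each genotype without the block, were added after seeing the data. RefSeq promoters on GRCm38.p6 were matched by symbol, 3 of them by synonym. Other lists were the mitochondrial genome, both kinds of ribosomal protein, glycolysis, the tricarboxylic acid cycle, carriers and assembly proteins, regulators, hemoglobins and neutrophil granules.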

Additional observations from a re-analysis of the deposited data

Results flagged for a closer look

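In 75 groups of WT values examined for a library set apart from the others, 3 were flagged, and chance alone flags about 1 in 20 groups. Cox7a2l was at 372.8 CPM in the aEC of WT 4, against 278.1 to 304.6 in the other WT libraries. Ndufa3 was at 300.7 CPM in the EMP of WT 3, against 195.7 to 219.7 in the others. Cox5b was at 568.4 CPM in the Myeloid cells of WT 5, against 371.4 to 421.2 in the others, and WT 5 is the WT library with the fewest UMIs per cell.

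A row of the count table named for a Cre transgene, which the comparisons do not use, had 34 counts in the Meis1 cKO libraries, namely 12, 3 and 19, and 0 in the 5 WT libraries. The row is labelled CreERT2, a tamoxifen-inducible form, while the labels give VE-Cre.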

How the results depend on the processing

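The counts of members called between cell types kept within 1.5 times under 105 of 116 settings, and the sums by complex moved by less than their SD under 187 of 191. With cells thinned to 5000 UMIs, 35 members were called for pre-HE against aEC, 28 for EHT against pre-HE, 42 for EHT against aEC, 29 for EMP against EHT, 25 for Myeloid against EMP, 20 for Megakaryocyte against EMP and 13 for vEC_2 against vEC_3. In vEC_2 against vEC_3 library totals gave 31 (36.5%, beside 34.2% of all genes). In the 3 Meis1 cKO libraries alone 31 were called for pre-HE against aEC (37.8%, beside 21.8%). Leaving out 1 library gave 24 (without WT 5) to 40 for Megakaryocyte against EMP. Thinning moved the log2 ratio of the sums for Megakaryocyte against EMP to −0.25. Medians over subunits in place of sums gave 0.22 for complex IV in EHT against pre-HE, and 0.11 for all members and 0.22 for complex III in EMP against EHT.

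Among named genes between cell types, 2727 values under other settings kept their direction and side of the threshold, 65 passed it newly, 197 lost it and 10 turned. With library totals, Cox5a and Cox7a2 were at 0.0228 and 0.0205 in EHT against aEC and Atp5g2 and Cox6b1 at −0.0211 and −0.0104 in EMP against EHT. Thinned, Atp5g2 was at −0.10 in EMP against EHT, Cox8a at 0.0066 in Megakaryocyte against EMP and Sdhb at −0.0297 in Myeloid against EMP. In the Meis1 cKO libraries alone, Cox6b1, Cox7a2 and Sdhb were at −0.13, 0.0017 and −0.0121 in Myeloid against EMP. The cause was not tested.

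Between genotypes, leaving out 1 library gave 0 to 3 members in aEC, 0 to 8 in vEC, 0 to 5 in EHT, 1 to 7 in EMP, 0 to 2 in Megakaryocyte and 0 to 7 in Myeloid, the most each time without WT 5, which leaves only WT libraries deeper than Meis1 cKO. Without WT 5 the calls in EMP were 8.05% of members, beside 9.2% of all genes, and in Myeloid 7.95%, beside 12.3%. No filter on low counts gave 3 in aEC (3.41%, beside 1.32% of all genes) and 4 in EHT (4.49%, beside 1.49%). It gave 1 in Megakaryocyte (1.14%, beside 1.73%) and 4 in Myeloid (4.49%, beside 2.4%). DESeq2 called 2 in vEC (2.3%, beside 2.16%) and 2 in EHT (2.33%, beside 0.496%). Thinning gave 1 in EHT (1.25%, beside 0.114%) and 0 in Myeloid, beside 2.06%. WT 5 as the only WT library, and depth as a covariate, gave 0 in EMP and 0 in Myeloid. The former assumes that WT 5 varies as the Meis1 cKO libraries do. Deviations of same-numbered libraries correlated at −0.137 to 0.293, and in no cell type were all pairs over 0.1. Differently numbered libraries were not set beside them, so these values cannot decide whether the numbers pair the libraries. With the replicate block on libraries 1 to 3, 15 members were called in aEC (17.6%, beside 8.0% of all genes), 24 in vEC (27.6%, beside 19.5%), 2 in pre-HE (2.63%, beside 3.97%), 8 in EHT (9.3%, beside 5.68%), 11 in EMP (12.8%, beside 10.9%) and 8 in Myeloid (9.09%, beside 11.6%). The same libraries without the block gave 3, 6, 0, 5, 6 and 6, and 1 in Megakaryocyte, beside 3.23%, 9.97%, 2.98%, 3.51%, 8.17%, 11.6% and 1.4% of all genes. Those libraries exclude WT 5. Pre-HE is limited by depth, with 11 cells in its smallest library.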
